A study of Mus musculus with 96 samples.

Results

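The 47 control cells of this single-cell RNA-seq experiment were chosen by their source and by a measured value. They are the cells of the 2 shLuc cultures with at least 3000 genes with a TPM (the reads of a gene per unit of its length, scaled to the same total in each cell) above 0, out of 96 cells sequenced and 95 that reached that minimum. Within each culture the cells were divided by the same value, the number of genes with TPM above 0. Cells above the median of their culture are called high cells and cells at or below it low cells. Because this number selected the cells and is itself the sum of the detection of all genes, every difference between high and low control cells in the level or detection of a gene is given as a description, without a test.

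EL4 is a mouse T-lymphoma line of the strain C57BL/6 in the labels and C57BL/6 N in the study's methods. The control cells (WT) were infected with virus carrying a hairpin against luciferase (shLuc), and the knockdown cells (CTCF-KD) with virus carrying a hairpin against Ctcf (shCTCF). The study's methods list 2 hairpin sequences against Ctcf, numbered 1 and 2, and do not say which culture carried which. Each genotype had 2 cultures, #1 from an initial experiment and #2 from a second one, and the cells of each culture were captured on their own Fluidigm C1 circuit. By the study's methods, wells with no cell or with a pair of cells were left out and the 24 cells of highest quality were taken from each circuit, so these cells are a selection of each culture. Culture, circuit and experiment cannot be told apart, and in the knockdown cells neither can a difference in hairpin. In all, 1 cell line with 1 pair of cultures per genotype was measured. The knockdown cells were divided in the same way, as cultures that did not enter the choice of the control cells.

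Cells that divide pass from G1 through DNA replication in S phase to G2 and mitosis, and the genes for these steps are transcribed in waves. The G1/S wave, which includes nucleotide synthesis enzymes and the replicative helicase, is driven by E2F factors. The later G2/M wave, which includes cyclin B, Cdk1, the spindle and the kinetochore, is controlled by the DREAM and B-MYB-FOXM1 complexes through a promoter element called the cell cycle genes homology region (CHR), often beside CCAAT boxes bound by NF-Y. Genes for ribosomes, glycolysis and the cytoskeleton are by contrast read in nearly every cell of a growing T-lymphoma line.

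The promoters of 4 G2/M genes are shown here because the genes gained in the high cells were led by this wave, and that of Mcm6 because it carries the element of the earlier wave. Spag5 and Top2a were among the 8 gained genes named by rule, whereas Cdk1 and Ccnb2, the mitotic kinase and its cyclin, and Mcm6, a helicase subunit, were picked with their values known. Each window runs 5′ to 3′ from 250 bases before to 50 bases after the annotated start, from RefSeq on GRCm38.p6. In the first 4 sequences capitals mark the CHR (TTTGAA) and the CCAAT box (CCAAT), each read on both strands. In that of Mcm6 they mark the E2F site (TTTCCCGC or TTTGGCGC, both strands). The letters of these 3 elements do not contain one another.
Top2a (chr11:99024140-99024439, minus strand): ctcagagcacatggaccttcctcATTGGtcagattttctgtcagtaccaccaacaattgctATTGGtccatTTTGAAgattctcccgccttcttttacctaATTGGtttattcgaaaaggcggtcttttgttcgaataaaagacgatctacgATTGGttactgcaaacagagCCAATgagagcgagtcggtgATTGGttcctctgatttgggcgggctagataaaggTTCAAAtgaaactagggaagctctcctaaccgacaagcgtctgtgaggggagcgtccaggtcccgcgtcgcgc
Spag5 (chr11:78301341-78301640, plus strand): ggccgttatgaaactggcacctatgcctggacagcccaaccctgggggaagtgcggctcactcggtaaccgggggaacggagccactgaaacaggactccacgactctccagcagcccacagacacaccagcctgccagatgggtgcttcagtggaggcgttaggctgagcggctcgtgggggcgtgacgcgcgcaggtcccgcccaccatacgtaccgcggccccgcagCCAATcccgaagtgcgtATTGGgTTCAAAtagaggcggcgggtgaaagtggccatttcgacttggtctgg
Cdk1 (chr10:69352863-69353162, minus strand): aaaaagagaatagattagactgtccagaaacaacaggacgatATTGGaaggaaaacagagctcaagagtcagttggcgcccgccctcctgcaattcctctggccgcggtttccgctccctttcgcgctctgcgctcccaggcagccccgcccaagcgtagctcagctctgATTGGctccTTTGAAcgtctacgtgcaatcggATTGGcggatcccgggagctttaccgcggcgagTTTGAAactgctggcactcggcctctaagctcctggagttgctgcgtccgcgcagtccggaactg
Ccnb2 (chr9:70421505-70421804, minus strand): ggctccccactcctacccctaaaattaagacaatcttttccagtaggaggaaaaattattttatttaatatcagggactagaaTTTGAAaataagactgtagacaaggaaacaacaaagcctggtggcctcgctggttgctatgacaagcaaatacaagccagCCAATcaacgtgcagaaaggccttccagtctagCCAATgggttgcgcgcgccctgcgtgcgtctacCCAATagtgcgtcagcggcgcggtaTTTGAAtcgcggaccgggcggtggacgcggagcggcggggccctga
Mcm6 (chr1:128359656-128359955, minus strand): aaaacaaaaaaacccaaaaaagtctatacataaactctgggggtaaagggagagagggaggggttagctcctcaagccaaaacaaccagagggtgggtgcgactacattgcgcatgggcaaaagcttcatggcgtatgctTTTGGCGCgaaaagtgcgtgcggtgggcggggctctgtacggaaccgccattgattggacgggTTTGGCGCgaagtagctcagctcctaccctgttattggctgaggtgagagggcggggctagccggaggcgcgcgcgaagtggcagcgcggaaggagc

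The window of Top2a held 2 CHR and 6 CCAAT boxes, that of Cdk1 held 2 and 3, that of Ccnb2 held 2 and 3, and that of Spag5 held 1 and 2. The CHR nearest to the start began 23 bases before it in Top2a and 15 bases before it in Cdk1. The window of Mcm6 had 2 E2F sites and no CHR. The windows shown were picked among those with these elements, and not every gained gene had them. Of the other genes named by rule as gained, Asf1b had 1 CHR and 4 CCAAT boxes, Pmm2 had 2 CHR and no CCAAT box, and Ncaph had neither. Tubb5, of the G2/M list, had 2 CCAAT boxes and no CHR. Over the G2/M and mitosis list, 31 of the 40 genes with a promoter sequence had a CHR (77.5%), against 18.1% of all 27025 promoters and 1003 of the 8356 tested genes with a promoter sequence. A CHR and a CCAAT box stood together in 67.5% of the G2/M list and in 5.24% of the tested genes. In the G1/S and DNA replication list the CHR was in 3 of 29 windows and the E2F site in 9, against 3.33% of the tested genes and 1.63% of all promoters, whereas the E2F site was in 0 of the 40 G2/M windows. A match is a run of letters and was not tested for binding.

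Outside the 2 cell cycle lists, 74 of the 409 tested genes with both a CHR and a CCAAT box were gained (18.1%, gained being defined with the gene counts), beside 1056 of all 8287 such genes with a promoter sequence (12.7%). These shares describe the windows and were not tested.

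In shLuc #1 the 12 high cells had 4786 to 6534 genes (median 5320) and the 12 low cells 3525 to 4756 (median 4425.5). In shLuc #2 the 11 high cells had 4645 to 6484 genes (median 5472) and the 12 low cells 3630 to 4635 (median 3968). The high medians thus lay 894.5 and 1504 genes above the low ones, and the cells on either side of the line were close, at 4756 and 4786 genes in shLuc #1 and at 4635 and 4645 in shLuc #2. The split was set by these numbers and is no result in itself.

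More genes did not go with more reads. With the scale of each cell divided out, the values of a gene over the cells were whole multiples of a step of that gene. The reads behind them could thus be recovered (143112 to 405404 reads per control cell). They are the fewest reads that a gene's values allow, which can be too few for a gene seen in few cells. The high cells of shLuc #1 had a median of 219326 reads and the low cells 283094, and in shLuc #2 the medians were 207736 and 265004. The high median was therefore lower in both cultures, the difference being -63768 reads in shLuc #1 and -57268.5 in shLuc #2, with overlapping ranges. An exact two-sided sign-flip permutation test over the 2 cultures gave p = 0.5, the smallest it can give. Over all 4 cultures, where the high median was lower in 3, it gave p = 0.375 with a smallest possible value of 0.13. Pearson's r between genes and reads over the cells of a culture was -0.23 (n = 24) in shLuc #1 and -0.35 (n = 23) in shLuc #2, given as a description since cells of 1 culture share their circuit. After every control cell was thinned to 80000 reads, no cell changed sides, and the high medians remained 853 and 1350.5 genes above the low ones. The 100 most abundant genes took a median of 28.4% of the reads in the high and 30.7% in the low cells of shLuc #1, and 24.98% and 28.2% in shLuc #2.

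**Figure D1:**
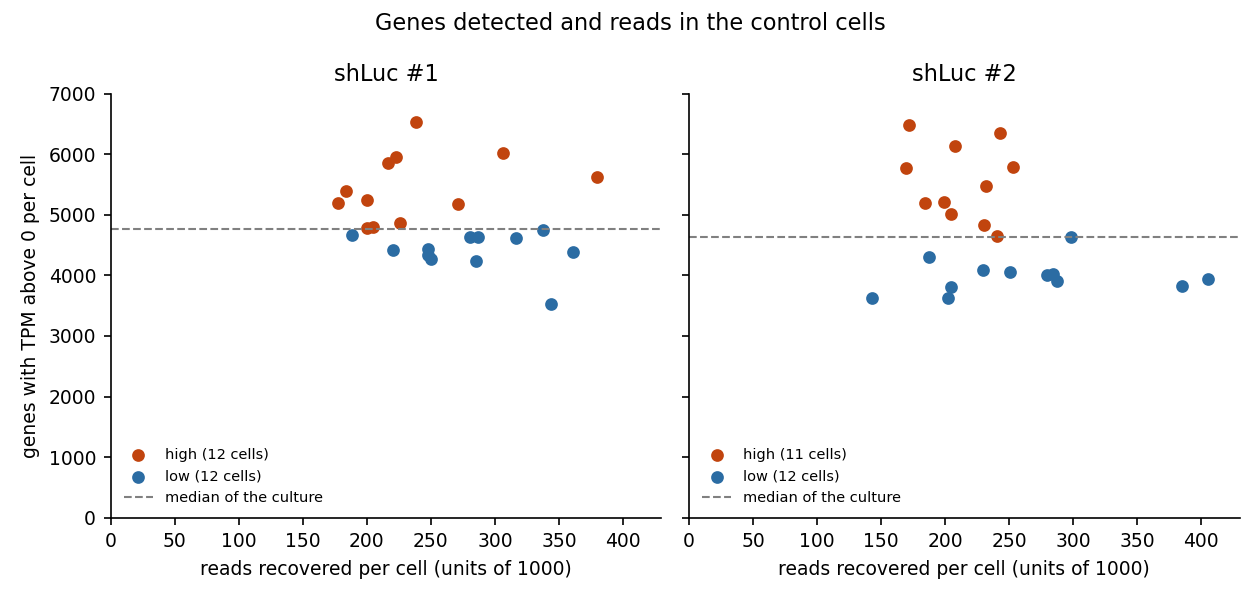
Genes with TPM above 0 (vertical axis) against reads recovered from the TPM values (horizontal axis, in units of 1000 reads) for the control cells of shLuc #1 and shLuc #2. Each point is a cell, orange for high and blue for low cells, and the dashed line is the culture's median (4771 and 4635 genes). The cells with most reads lie mostly below the line.

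High and low cells alike carried the T-lineage genes of their label. All 16 T-lineage markers were tested, and Cd3d, a T-cell receptor chain, had reads in all 47 control cells, with a mean log2(TPM + 1) of 11.30 in the high and the low cells of shLuc #1. The summed TPM of the 16 markers ran from 4634 to 17062 in the high and from 8173 to 24427 in the low cells of shLuc #1, and from 7545 to 16493 and 6273 to 25328 in shLuc #2. Of the markers of other cells, 6 of 8 B-cell genes, 8 of 11 myeloid genes, all 5 erythroid genes in the table and 6 of 9 fibroblast and endothelial genes were at 0 in every control cell. The B-cell marker Cd22, whose exons overlap Gm29439 on the other strand, was seen in 3 high cells of shLuc #2 and in no other control cell. Pecam1, of the fibroblast and endothelial markers, had reads in 13 of 23 high and 9 of 24 low control cells. Its highest value was 583 TPM, in a low cell of shLuc #1. The myeloid marker Cd68 had reads in 4 of 23 high and 6 of 24 low control cells. The summed myeloid markers had a median of 0 in the high and the low cells of both control cultures, with single cells of up to 529 TPM among the low and 319 TPM among the high cells. The part of such cells in the differences below was not tested.

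The comparison used the 10867 genes whose log2(TPM + 1) exceeded 1 in 2 or more of the control cells. For each, the mean over the low cells of log2(TPM + 1) was subtracted from that over the high cells, in each culture. A gene was called gained where this difference was 1 or more in both control cultures, lost where it was -1 or less in both, and little changed where it lay between -0.25 and 0.25 in both. Gained genes numbered 1413 (13%), lost genes 33 (0.304%) and little changed genes 765 (7.04%), and gained genes made up 97.7% of the gained and lost together. In 1 culture alone the same limits took in 2836 gained and 535 lost genes (shLuc #1) or 3744 gained and 347 lost (shLuc #2), and 2637 or 2317 little changed genes. The median difference over all genes was 0.35 in shLuc #1 and 0.57 in shLuc #2, a shift that the choice of cells by gene number brings with it. On log2(mean TPM + 1) of each set of cells, a scale on which cells without reads weigh less, the shift was 0.10 and 0.12, with 948 gained and 411 lost genes, so that 69.8% of the called genes were gained. Relative to the shift, 697 genes were gained and 151 lost (82.2% gained).

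The gained genes differed mostly in how many cells had reads. Over the 1413 gained genes the median share of cells with reads was 73.9% in the high and 41.7% in the low cells. In the cells that had reads their level was closer, at medians of 5.73 and 5.31 on the log2(TPM + 1) scale, and higher in the high cells for 1027 of the 1396 genes with reads in both. Over all genes the shares of cells were 47.8% and 29.2%, whereas the level in cells with reads was lower in the high cells, at medians of 4.89 and 5.10, and higher in them for 4947 of 10291 genes. The gained genes together took a median of 17.2% (11.03 to 18.9%) of the reads of a high cell and 8.27% (7.16 to 15.2%) of a low cell in shLuc #1, and 16.3% (12.3 to 21.2%) and 9.49% (7.59 to 16.1%) in shLuc #2. The little changed genes took 15.9% in the high and 17.8% in the low cells of shLuc #1 and 13.8% and 15.04% in shLuc #2. The ranges of the gained genes' shares overlapped between high and low cells in both cultures.

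The share of gained genes differed with the level of the gene. Between a mean log2(TPM + 1) of 2 and 4, 23.9% of 2750 genes were gained, and between 4 and 6, 26.1% of 1273 genes. Below 1 the share was 1.37% of 3427 genes, between 8 and 10 it was 2.90% of 276 genes, and above 10 none of 98 genes was gained whereas 44.9% of them were little changed. Exon length differed little, with a median of 4429 bases for the gained genes, 4075.5 for the little changed and 4383 for all tested genes with a GENCODE entry (96.8% of them).

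**Figure D2:**
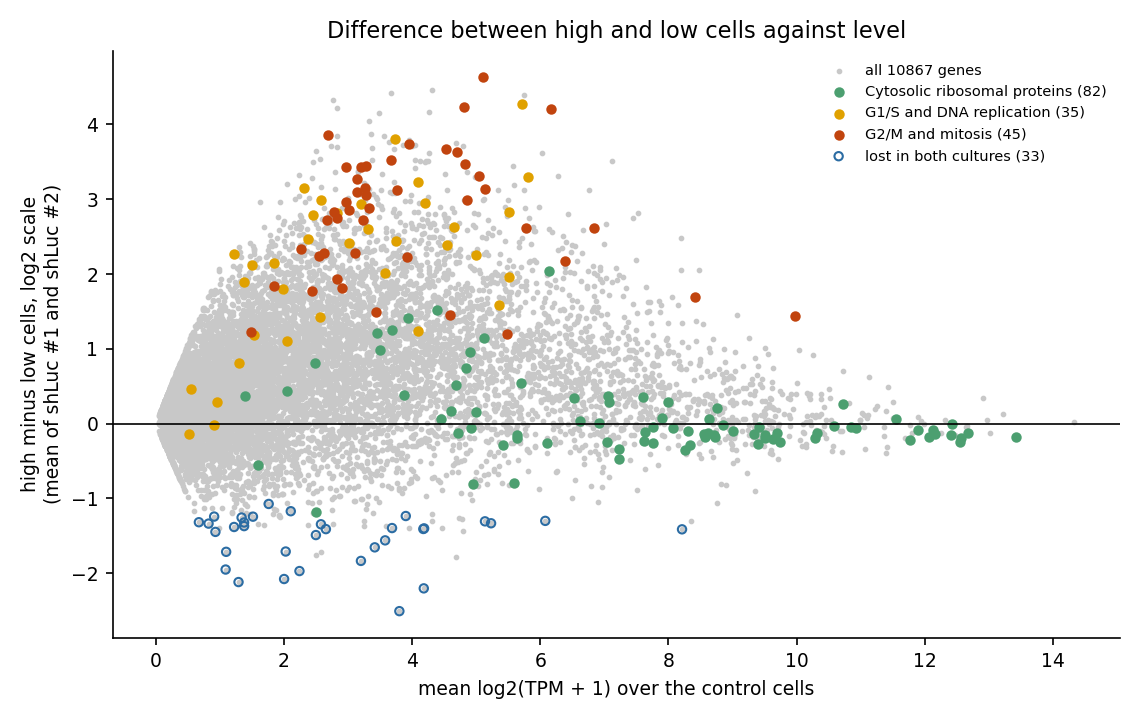
Difference between the high and the low cells (mean of both control cultures, log2 scale, vertical axis) against the mean log2(TPM + 1) over the control cells (horizontal axis) for the 10867 genes tested. Genes of the G2/M list (45, orange) and the G1/S list (35, yellow) lie mostly above the grey cloud at their level, cytosolic ribosomal protein genes (82, green) lie near 0 at the right, and open blue circles are the 33 lost genes.

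Cell division genes led the gained class. Of the 45 genes of the G2/M and mitosis list, 40 were gained and none lost, and all 45 were higher in the high cells of both cultures, beside 13% gained and 50.0% higher in both among all genes. The median difference of the list was 3.41 in shLuc #1 and 2.16 in shLuc #2. Of the 35 genes of the G1/S and DNA replication list, 24 were gained and none lost, with medians of 2.06 and 2.60. Relative to the shift of all genes, 30 of the G2/M and 20 of the G1/S genes were gained, beside 6.41% of all genes. On log2(mean TPM + 1), 17 and 12 were gained, beside 8.72% of all genes. When the cells were divided by the number of genes outside both lists, which moved 2 cells to the other side, 39 and 24 were gained.

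The 8 genes named as gained, those with the largest difference in the culture where it was smaller, were Pbk, Asf1b, Cdc25c, Pmm2, Spc24, Spag5, Ncaph and Top2a. Pbk (GRCm38 chr14:65805837-65817822, GENCODE), a kinase active in mitosis, had reads in 10 of 12 high and 3 of 12 low cells of shLuc #1 and in 9 of 11 high and 3 of 12 low cells of shLuc #2. Its TPM ran from 0 to 327 (median 86.6) in the high and from 0 to 561 (median 0) in the low cells of shLuc #1, and from 0 to 1459 (median 174) and 0 to 556 (median 0) in shLuc #2, differences of 4.41 and 4.44 on the mean log2 scale. Most low cells thus lacked Pbk, while 1 low cell of shLuc #1 was above every high cell. Asf1b, a histone H3-H4 chaperone, had medians of 359 and 2.72 TPM in the high and low cells of shLuc #1 and of 825 and 8.43 TPM in shLuc #2, with low cells of up to 483 and 1430 TPM. Spag5, a spindle protein, was the gene of these for which low cells stayed low, with at most 25.9 TPM in shLuc #1 and 2.81 TPM in shLuc #2, against high cells of up to 588 and 183 TPM.

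Top2a, the topoisomerase that untangles sister chromatids, had reads in all 23 high cells and in 17 of 24 low cells. Its TPM was 3.41 to 1243 (median 406) in the high and 0 to 1074 (median 3.33) in the low cells of shLuc #1, and 61.7 to 1966 (median 449) and 0 to 983 (median 45.3) in shLuc #2. High and low cells overlapped in both cultures, with differences of 4.55 and 3.85. The kinetochore subunit Spc24 differed by 4.25 and 4.08, the condensin subunit Ncaph by 3.86 and 4.44, and the phosphatase Cdc25c, which activates Cdk1, by 4.25 and 4.66. Pmm2, an enzyme that makes mannose-1-phosphate for protein glycosylation, was the one gene of the 8 without a known place in cell division, with differences of 4.18 and 4.47. The exons of Pmm2 overlap Tmem186 and those of Cdc25c overlap Gm3550 on the other strand, and whether the counting used strand is not given in the sources used here.

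Within the G2/M list, Cdk1 differed by 4.50 and 2.84 and had reads in 10 of 12 high and 3 of 12 low cells of shLuc #1 and in 9 of 11 high and 6 of 12 low cells of shLuc #2. Its partners Ccnb1 and Ccnb2 differed by 3.83 and 1.94 and by 4.42 and 1.86. The kinases Aurkb (3.35 and 3.59) and Plk1 (3.75 and 2.79), the anaphase activator Cdc20 (3.61 and 2.31) and the proliferation marker Mki67 (4.08 and 2.16) were all gained. Tubb5, a tubulin read in all 47 cells and the most abundant gene of the list, was gained by 1.65 and 1.22, with medians of 2165 TPM in the high and 381 TPM in the low cells of shLuc #1 and of 1913 and 711 TPM in shLuc #2. Bub3, a checkpoint protein, was gained by 1.86 and 1.54. The 5 members that were higher but not gained in both cultures were Anln, Ccna2, Ndc80, Ttk and Aspm, whose smaller differences lay between 0.39 (Aspm) and 0.93 (Ndc80).

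Within the G1/S list, Rrm2, a subunit of ribonucleotide reductase, differed by 5.18 and 3.37. Its TPM was 0 to 1532 (median 403) in the high and 0 to 278 (median 3.85) in the low cells of shLuc #1, and 0 to 1973 (median 652) and 0 to 2881 (median 13.1) in shLuc #2, so the highest cell of shLuc #2 was a low cell. Its partner Rrm1 differed by 2.40 and 4.2. Of the helicase subunits Mcm5 (3.04 and 2.83), Mcm6 (2.76 and 2.49) and Mcm7 (4.0 and 3.61) were gained, whereas Mcm2 (-0.68 and 3.53), Mcm3 (0.50 and 4.01) and Mcm4 (0.04 and 3.15) were higher by more than 1 in shLuc #2 alone. The sliding clamp Pcna was gained by 2.09 and 2.68. E2f1, a factor of this wave, was read in few cells and differed by 0.57 and 0.02, and the cyclin Ccne1 by 0.38 and -0.41.

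**Figure D3:**
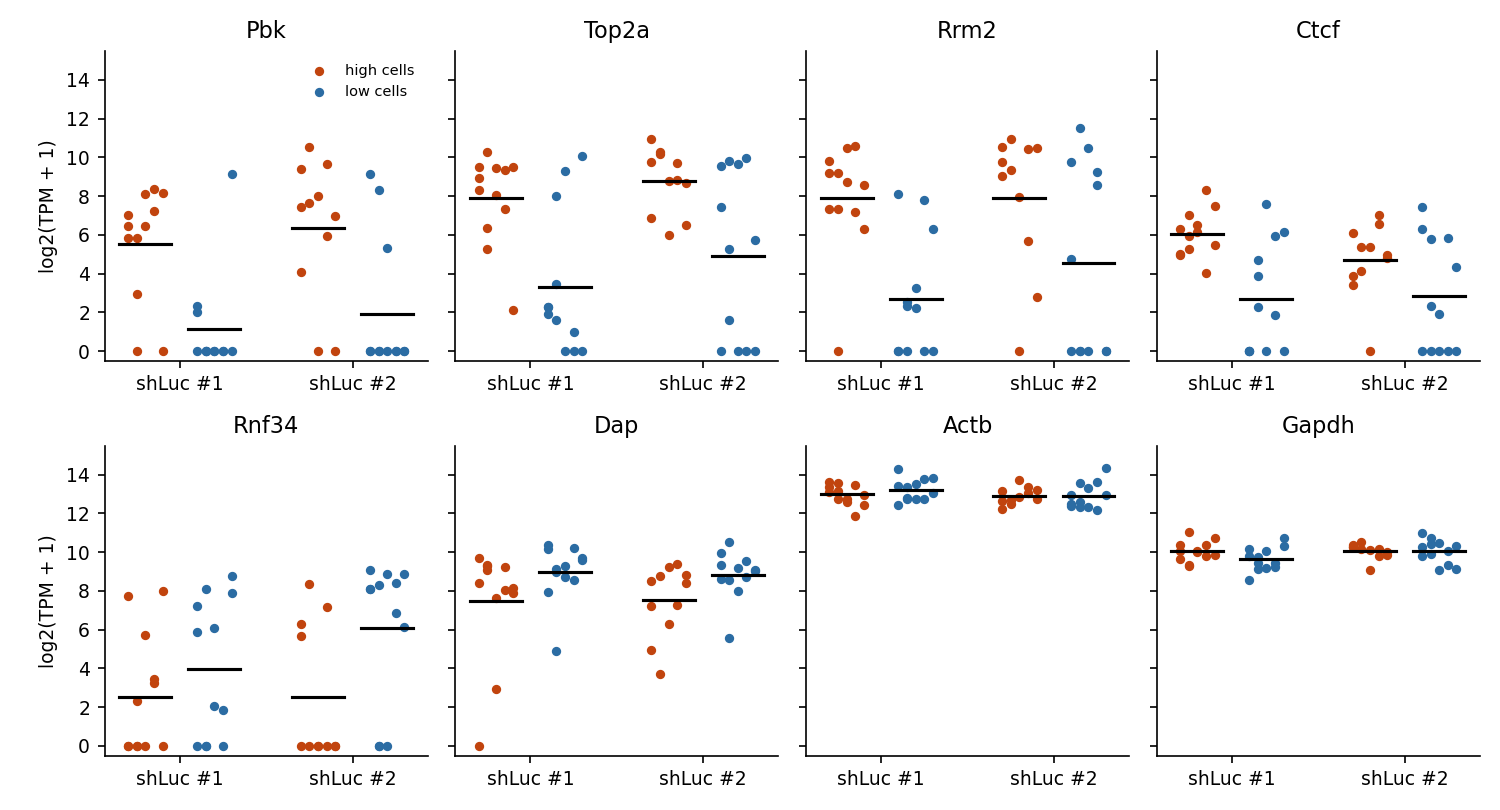
log2(TPM + 1) of 8 genes (vertical axis) in every control cell of shLuc #1 and shLuc #2, orange for high and blue for low cells, with the mean as a black bar. Pbk, Top2a, Rrm2 and Ctcf have many low cells at or near 0 and some as high as the high cells, Rnf34 and Dap have lower means in the high cells, and Actb and Gapdh have reads in all cells.

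Seen per cell, the cycle genes separated the high from the low cells in part. Of the 45 G2/M genes the high cells of shLuc #1 had reads for 13 to 45 (median 42.5) and the low cells for 8 to 45 (median 13.5), and in shLuc #2 the numbers were 10 to 45 (median 39) and 7 to 43 (median 12.5). A single low cell of shLuc #1 and 3 low cells of shLuc #2 reached the median of the high cells, and a single high cell of each culture was at or below the median of the low cells. Of the 35 G1/S genes the medians were 21 in the high and 9.5 in the low cells of shLuc #1 and 28 and 11 in shLuc #2, again with overlap. The G2/M genes took a median of 1.87% of the reads of a high cell and 0.165% of a low cell in shLuc #1, and 1.38% and 0.226% in shLuc #2. Spearman's rho between the G2/M genes with reads and all genes detected was 0.60 (n = 24) and 0.56 (n = 23) over the cells of each culture, and -0.23 and -0.17 with the reads of the cell, as descriptions over cells that share a culture and a library preparation.

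**Figure D4:**
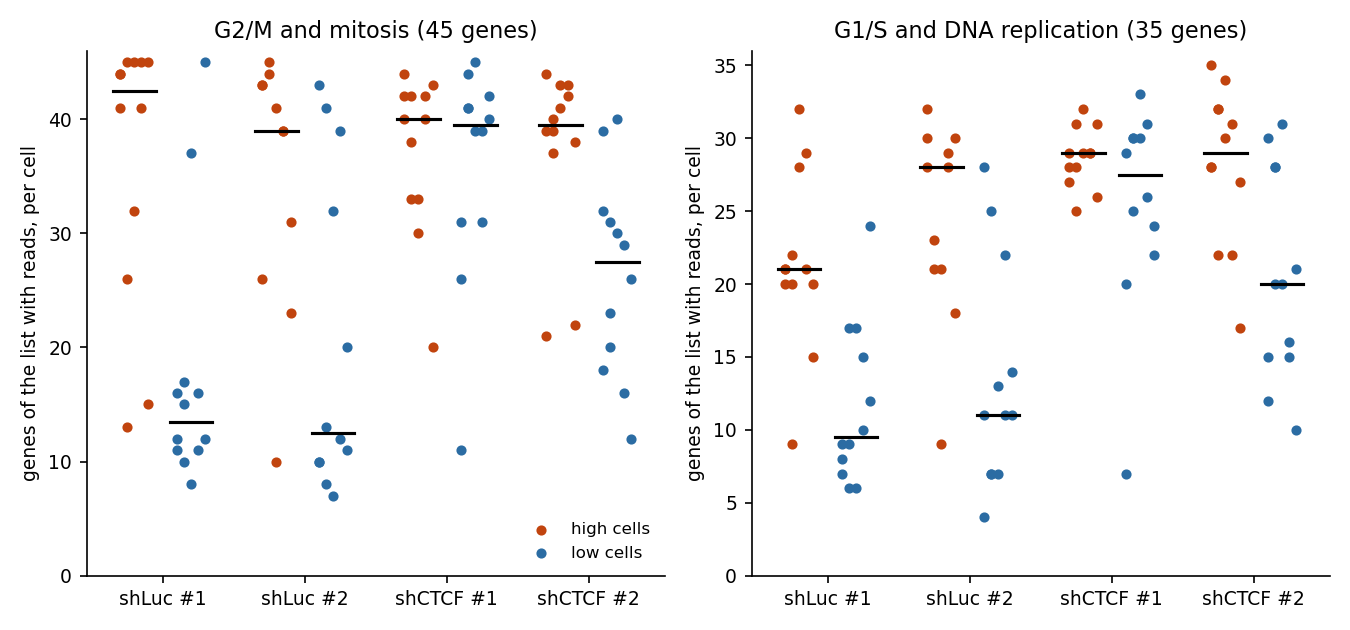
Number of genes of the G2/M (left, of 45) and G1/S (right, of 35) lists with reads in each cell (vertical axis) by culture, with orange for high cells, blue for low cells and black bars for medians. In the shLuc cultures the bars of high and low cells are far apart (42.5 and 13.5, 39 and 12.5 G2/M genes) and in shCTCF #1 they are not (40 and 39.5).

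Of the genes of CTCF and cohesin, which shape chromosome loops, 8 of 15 tested were gained (53.3%, beside 13% of all genes), with medians of 1.07 and 1.73. At a mean log2(TPM + 1) of 4 to 6, where the list's median lay (4.05), 26.1% of all genes were gained. Relative to the shift of all genes 5 of the 15 were gained, beside 6.41% of all genes. Ctcf itself (chr8:105636568-105682922) had reads in 22 of 23 high and 14 of 24 low control cells, and differed by 3.34 and 1.87. Its TPM was 15.2 to 317 (median 64.5) in the high and 0 to 193 (median 3.23) in the low cells of shLuc #1, and 0 to 131 (median 30.3) and 0 to 170 (median 3.39) in shLuc #2. High and low cells overlapped, and exons of Ctcf overlap Agrp and Gm5914 on the other strand. The cohesin subunits Rad21 (1.96 and 1.86), Smc3 (1.15 and 1.34) and Stag2 (1.66 and 2.31) and the acetyltransferases Esco1 (1.07 and 2.85) and Esco2 (2.57 and 3.45) were gained, whereas the loader Nipbl (-0.55 and 0.16), the release factor Wapl (0.14 and -0.34) and Smc1a (0.00 and 0.92) were not. On log2(mean TPM + 1), 1 of the 15 was gained, beside 8.72% of all genes, and the medians were 0.25 and 0.26.

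The lists for protein and RNA housekeeping differed in their share of gained genes, beside 13% of all genes. Of the RNA polymerase I genes 1 of 14 was gained (7.14%), and of the translation elongation factors 0 of 13, too few genes to rank these lists against that share. The median level of the first list was 2.47, and 23.9% of all genes at 2 to 4 were gained. That of the second was 8.73, and 2.90% of all genes at 8 to 10 were gained. The lists given next lay between the share of all genes and those of the cycle lists. Of the proteasome genes 12 of 46 were gained (26.1%, medians 0.92 and 0.96), of the mitochondrial ribosomal protein genes 19 of 77 (24.7%, 0.69 and 1.16), of the spliceosome genes 11 of 50 (22%, 0.82 and 0.78) and of the rRNA processing genes 14 of 72 (19.4%, 0.42 and 1.28). The share of the CCT chaperonin and Hsp90 genes, 3 of 19 (15.8%, 0.43 and 0.75), lay near that of all genes. Among all genes with a mean log2(TPM + 1) of 2 to 6 the share was 23.9 to 26.1%, as given above. Between 6 and 8, where the median levels of the proteasome (6.70) and chaperonin (7.69) lists lay, it was 12.9%. None of these lists had a lost gene. Relative to the shift of all genes 5 proteasome, 14 mitochondrial ribosomal, 6 spliceosome, 4 rRNA processing and 1 chaperonin gene were gained. The share of all genes on this measure was 6.41%. On log2(mean TPM + 1) the mitochondrial ribosomal list had medians of -0.01 and 0.10. Those of the rRNA processing list were -0.0011 and 0.60, so neither list was above 0 in both cultures. The abundant members Mrpl33 (0.06 and 0.04) and Hsp90ab1 (0.04 and 0.14) were little changed. Psmb8, an immunoproteasome subunit, differed by 0.95 and 0.54, and the splicing factor Srsf2 by 0.61 and 0.35. Exons of Psmb8 overlap Gm20496, and those of Srsf2 overlap Mettl23 and Mfsd11, on the other strand. Neat1, a nuclear long noncoding RNA, was gained by 1.44 and 1.93, while Malat1, another, differed by 0.62 and 0.62, and its exons overlap Gm37376 on the other strand.

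Most little changed genes were of low level, with 470 of the 765 at a mean log2(TPM + 1) of 0 to 1. The median level of the class was 0.54. For genes so near 0 a small difference does not show a steady level. Some abundant genes that serve every cell were also little changed. Most members of their lists lay outside these narrow limits in 1 or both cultures. The most abundant little changed genes included Aldoa, a glycolytic enzyme, Fth1, the ferritin heavy chain, and Actb, β-actin, each read in all 47 control cells. Aldoa had a mean log2(TPM + 1) of 14.56 in the high and 14.31 in the low cells of shLuc #1 and of 14.11 and 14.31 in shLuc #2. Actb had 12.98 and 13.22 in shLuc #1 and 12.92 and 12.92 in shLuc #2. Fth1 differed by 0.07 and 0.20. Of the cytosolic ribosomal protein genes 19 of 82 were little changed (23.2%), 2 gained and none lost (medians -0.22 and 0.08), of the oxidative phosphorylation genes 20 of 78 were little changed (25.6%) and 3 gained (0.13 and 0.18), and of the glycolysis genes 4 of 16 were little changed (25%) and none gained (0.26 and 0.02). These shares stand beside 7.04% of all genes, 6.36% of those with a mean log2(TPM + 1) of 6 to 8, 15.2% at 8 to 10 and the 44.9% above 10. The median level of the ribosomal list was 7.83, and those of the oxidative phosphorylation and glycolysis lists were both 8.92. Gapdh, the usual reference gene, whose exons overlap Iffo1 on the other strand, differed by 0.39 and 0.01.

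None of the T-lineage markers was gained, and few of the T-lineage transcription factors were. Of the 16 T-lineage markers none was gained, 3 were little changed and 1 was lost, beside 13%, 7.04% and 0.304% of all genes, with medians of -0.31 and 0.20. The lost marker was Cd2, an adhesion receptor. Cd3g differed by -0.34 and -0.35, Thy1 by 0.35 and 0.62, and Cd28 by 0.21 and 1.05. The transcription factor Gata3, whose exons overlap Gm13256 on the other strand, differed by -0.40 and 0.39 and Tcf7 by 0.26 and 0.29. Of the 26 T-lineage transcription factors tested 2 were gained (7.69%) and none lost. Of all genes at a mean log2(TPM + 1) of 6 to 8, where the markers' median level lay, 12.9% were gained. At 4 to 6, where that of the transcription factors lay (4.03), the share was 26.1%. Both lists are short, and these shares were not tested. Relative to the shift of all genes, the medians of the 16 markers were -0.66 and -0.37. Those of the 82 cytosolic ribosomal protein genes were -0.57 and -0.49. Differences also varied with level, and the median levels of these lists were 7.33 and 7.83. Before the shift was taken off, all genes at a mean log2(TPM + 1) of 6 to 8 had medians of 0.46 and 0.66. At 8 to 10 the medians were 0.13 and 0.21.

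**Figure D5:**
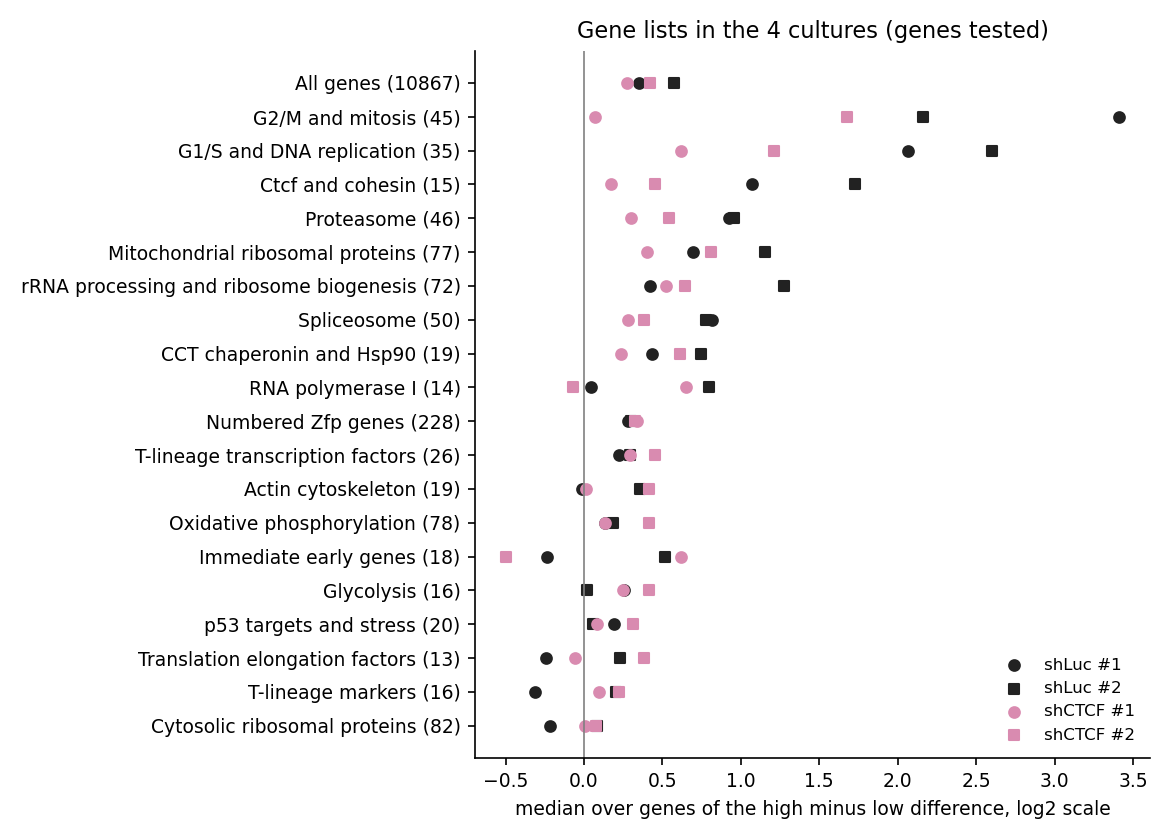
Median over the genes of each list of the difference between the high and the low cells (horizontal axis, log2 scale) in shLuc #1 and #2 (black) and shCTCF #1 and #2 (pink), with the number of genes tested in brackets and all genes in the top line. In the shLuc cultures the G2/M and G1/S lists lie furthest to the right (2.06 to 3.41), and the ribosomal, T-lineage and elongation factor lists lie near 0.

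Few genes were lost, and 8 were named by the same rule: Gm853, 1810022K09Rik, Tbc1d17, Rnf34, Dap, Tpm1, Taz and Gabarapl2. Dap (chr15:31224314-31274341), a regulator of autophagy and cell death, was the most abundant of them and was read in 22 of 23 high and all 24 low cells. Its TPM was 0 to 840 (median 312) in the high and 29.4 to 1312 (median 598) in the low cells of shLuc #1, and 12.3 to 660 (median 345) and 46.1 to 1470 (median 533) in shLuc #2, differences of -1.50 and -1.33. A few high cells with almost no Dap thus lay below all low cells, and the other cells overlapped. Rnf34 (chr5:122850048-122871291), a ubiquitin ligase, had medians of 2.0 and 30.5 TPM in the high and low cells of shLuc #1 and of 0 and 274 TPM in shLuc #2, with differences of -1.45 and -3.56. 1810022K09Rik, an uncharacterised gene, had reads in 13 of 23 high and 22 of 24 low cells.

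Gabarapl2, a member of the autophagosome protein family Atg8, differed by -1.33 and -1.47, the actin-binding tropomyosin Tpm1 by -1.33 and -1.65, the cardiolipin enzyme gene Taz by -1.33 and -1.49, Gm853 by -2.21 and -1.73, and the Rab regulator Tbc1d17 by -1.52 and -2.63. The exons of 1810022K09Rik, Rnf34 and Tbc1d17 overlap genes on the other strand (E2f5, Kdm2b, and Akt1s1 and Il4i1). Over the 33 lost genes a median of 39.1% of the high and 54.2% of the low cells had reads, and together they took a median of 0.129% and 0.340% of the reads in shLuc #1 and 0.0906% and 0.339% in shLuc #2. With the 6 cells richest and the 6 poorest in genes of each culture, the mean difference of Tpm1 was 0.16.

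The knockdown cells, which the choice of the control cells did not use, were richer in genes (medians 6172.5 in shCTCF #1 and 5656 in shCTCF #2) and their high medians lay 746 and 921.5 genes above the low ones. Of the same 10867 genes, 904 (8.32%) were gained, 25 (0.230%) lost and 937 (8.62%) little changed in both CTCF-KD cultures. The high and low cells of these cultures were also set by their gene numbers, so an upward shift (medians 0.28 and 0.42) is built into them. Of the 1413 genes gained in the control cells, 177 (12.5%) were gained in both CTCF-KD cultures and 797 (56.4%) were above 0 in both, beside 8.32% and 45.3% of all genes. Of the 33 lost genes none was lost in both CTCF-KD cultures, and 17 were above 0 in both. The control medians of the gained genes were 1.70 and 1.87, and their CTCF-KD medians 0.45 and 0.84. The control values are those by which these genes were chosen, so lower values in cultures that did not choose them come with the choice and show no difference between the genotypes.

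Both cycle lists had larger median differences in shCTCF #2 than in shCTCF #1. The G2/M list had a median difference of 0.07 in shCTCF #1 and 1.68 in shCTCF #2, and the G1/S list of 0.62 and 1.21. The high cells of shCTCF #1 had reads for a median of 40 and the low cells for 39.5 of the 45 G2/M genes, and in shCTCF #2 the medians were 39.5 and 27.5. In both CTCF-KD cultures 4 of the 45 G2/M genes were gained (8.89%), near the 8.32% of all genes, and 8 of the 35 G1/S genes (22.9%). Top2a differed by 0.17 and 2.86, and Pbk by -1.08 and 2.02. Ctcf, the knocked-down gene, had reads in 10 of 12 high and 6 of 12 low cells of shCTCF #1 (median TPM 9.79 and 1.16) and in 10 of 12 high and 10 of 12 low cells of shCTCF #2 (median TPM 18.4 and 32.3), differences of 0.62 and -0.27. The TPM ranges of Ctcf overlapped between the control and the CTCF-KD cells, and a TPM of 0 in a single cell can be a transcript that was not captured.

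The differences of the CTCF-KD cultures share the limit of the control cells, since the detection of the same genes set their high and low cells. Calls against 0 in these cultures are therefore given as a description and support no statement on a gene. limma was fitted to the means of the high and low cells of the CTCF-KD cultures, 4 values per gene with the culture as a block, over 11231 genes. It called 1 gene higher in the high cells (0.00890% of the genes tested) and 0 lower (0%) at an adjusted p under 0.05, with 1185 genes higher and 52 lower at an unadjusted p under 0.05. That gene was Ruvbl2 (chr7:45421760-45438096), an ATPase of chromatin remodelling complexes, with an effect of 2.71 ± 0.37 (SE). Its TPM was 362 to 1320 (median 904) in the high and 0 to 1403 (median 332) in the low cells of shCTCF #1, and 328 to 1186 (median 725) and 0 to 1492 (median 297) in shCTCF #2. The high cells all had reads, and the low cells spread from 0 to above the highest high cell. The call rested on the block and on the scale, being lost without the block and on log2(mean TPM + 1). In the control cells Ruvbl2 differed by 0.38 and 1.00, and its exons overlap Gys1 and Lhb on the other strand. Relative to the shift of all genes, a fit chosen after the data were seen, 9 genes were called higher, Ruvbl2 among them, and 2 lower, Arf2 and Actb. Actb differed by only -0.11 and 0.02 before the shift was taken off. Of the G2/M and G1/S lists no gene was called in the fit against 0.

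A limma test of the difference between the CTCF-KD and the control differences, with 1 value per culture, called 0 of 11980 genes (0%), with a smallest adjusted p of 0.787 and 296 higher and 447 lower at an unadjusted p under 0.05. By the study's methods the #1 cultures of both genotypes came from 1 experiment and the #2 cultures from another. With this number as a block the fit also called 0 genes, with a smallest adjusted p of 0.546 by limma and 321 higher and 486 lower at an unadjusted p under 0.05. No single gene, those of the cycle lists included, was therefore past this test in either fit. The list medians were not entered in the fits, so their differences between control and knockdown cultures were not tested.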

How the data were processed

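Single EL4 cells were processed by the authors with the SMARTer chemistry on Fluidigm C1 circuits. By the study's methods the authors aligned reads with STAR to GRCm38, kept unique alignments, counted them with HTSeq per RefSeq gene and deposited TPM values. The table held 24057 genes and 96 cells, and the columns summed to one total. Strandedness is not given in the sources used here.

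1 control cell with 81 genes above 0 was left out by the minimum of 3000 genes. Whole reads were recovered from the step that the TPM values of a gene share over the cells, once the scale of each cell was divided out. With a tolerance of 0.001 reads this held for all 9602 genes with values in 10 or more cells. The recovered reads served for depth and for thinning to 80000 reads (seed 11). Intervals were not drawn from them, since amplified reads are not independent molecules. Differences were taken on log2(TPM + 1), a scale that understates changes of low genes. limma 3.58.1 (R 4.3.3, eBayes with trend, Benjamini-Hochberg) was used for the high and low CTCF-KD cells and for the difference of differences. 4 values with a culture block leave 1 residual degree of freedom. Depth and list values were computed with Python 3.11.15, numpy 2.4.6 and pandas 2.3.3. The recovery of reads, the gained and lost calls and the limma fit with a culture block were tested on simulated data. The other steps were not. No doublet caller was run. Cultures are the replicates, and p-values measure only the spread between them.

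The members, the gene lists and the tests were chosen with earlier results of these data known. Genes were named by rule: the 8 gained and 8 lost genes with the largest smaller difference at a mean log2(TPM + 1) of at least 2, the 4 most abundant little changed genes, the genes named in the study, the 2 most abundant genes of each list, and the 3 highest and 3 lowest limma statistics in the CTCF-KD cultures. 1 gene that the rule named is not reported here. Other genes of the lists were named after their values were seen. Coordinates, exon overlaps and lengths came from GENCODE vM21, and promoters from RefSeq (GRCm38.p6). 8356 of the 10867 tested symbols matched a promoter. Alternatives covered the pseudocount, the filter, the limits, the scale, the split, thinning, the cells near the median, the block, and each culture left out. The block of the difference of differences and the centred fit were added after the data were seen.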

Additional observations from a re-analysis of the deposited data

Results flagged for a closer look

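For 8 named genes both control cultures moved one way between the low and the high cells and both CTCF-KD cultures the other way. The size given for each is the mean CTCF-KD difference minus the mean control difference, on the log2 scale, and the limma test of that difference over 11980 genes gave adjusted p of 0.787 to 0.893, so none passed. Rnf34, a ubiquitin ligase, differed by 4.78 (-1.45 and -3.56 in the control, 2.92 and 1.64 in the CTCF-KD cultures). The other lost genes with this pattern were 1810022K09Rik (3.03), Tbc1d17 (2.59), Dap (2.34) and Tpm1 (2.10). Mfng, a glycosyltransferase that modifies Notch, differed by 5.08, with control differences of -1.43 and -0.47 and CTCF-KD differences of 4.13 and 4.14. It had reads in 3 of 12 high and 6 of 12 low cells of shLuc #1, in 3 of 11 high and 3 of 12 low cells of shLuc #2, where the share was not lower in the high cells, in 11 of 12 high and 4 of 12 low cells of shCTCF #1, and in 11 of 12 high and 5 of 12 low cells of shCTCF #2. The mitochondrial ribosomal protein gene Mrps16 differed by 0.39, and the splicing factor gene Sf3b1 by -0.71. The lost genes had been chosen for negative control values, and Mfng for its CTCF-KD values. Of all 33 lost genes 17 (51.5%) were above 0 in both CTCF-KD cultures, near the 45.3% of all genes. The share of all genes with opposite directions was not counted, so the number of named genes with this pattern cannot be judged.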

How the results depend on the processing

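The number of genes per cell and the lower reads of the high cells kept their direction under each alternative run. The class counts followed the settings. With a pseudocount of 0.1, 2556 genes were gained, 84 lost and 383 little changed, and with one of 10 the counts were 312, 3 and 2359. At a difference of 0.5, 2973 were gained and 168 lost, and at 2 the counts were 269 and 1. With the 6 cells richest and poorest in genes they were 2304 and 62. Without a filter on low values 1173 genes were little changed, and with a mean log2(TPM + 1) above 1, 295. On log2(mean TPM + 1), 411 were lost. Without one or the other control culture the counts ran from 2836 to 3744 gained, 347 to 535 lost and 2317 to 2637 little changed, since 1 culture then had to pass. Chosen after the data were seen, the difference relative to the median of all genes gave 697 gained and 151 lost. The G2/M and G1/S genes gained were 25 and 15 with a pseudocount of 10, 24 and 14 at a difference of 2, and 17 and 12 on log2(mean TPM + 1). Tpm1, lost as reported, was at 0.16 with the 6 richest and poorest cells.

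With the culture as a replicate block 1 gene was higher in the CTCF-KD cultures, and 0 without the block or on log2(mean TPM + 1). Added after the data were seen, the fit relative to the median of all genes called 9 higher and 2 lower. The difference of differences called 0 genes with the experiment number as a replicate block, as without it. The fit of high against low cells within the CTCF-KD cultures could not be made with 1 of them, which leaves no residual degrees of freedom. The cause of these changes was not tested. With 2 cultures per genotype the spread between cultures is poorly known, and TPM above 0 marks a read, so a gene at 0 may be expressed below detection.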

Other observations

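Of the 18 immediate early genes tested, which respond to stimulation of the cell, none was gained or lost in the control cells, beside 13% and 0.304% of all genes. In both CTCF-KD cultures 2 of them, Egr2 (-1.61 and -1.18) and Fosl2 (-1.32 and -1.20), were lost (11.1%, beside 0.230% of all genes), which was not tested and was seen after the values. Egr1, a zinc finger factor, was lower in the high cells of shLuc #1 (difference -1.47) and higher in those of shLuc #2 (2.0). Its TPM was 2.27 to 852 (median 197) in the high and 154 to 1192 (median 378) in the low cells of shLuc #1, and 155 to 2734 (median 835) and 0 to 1337 (median 371) in shLuc #2. Junb differed by -1.73 and 0.13 and Fos by -0.85 and -0.09. The list medians were -0.24 and 0.52, so the control cultures differed in sign. Junb shares exonic bases with Prdx2 on the other strand.

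Of the 20 p53 target and stress genes none was gained or lost, beside the same shares of all genes, with medians of 0.19 and 0.06. Asns, an amino acid synthesis enzyme, differed by 0.97 and 0.43, and the endoplasmic reticulum chaperone Hspa5 by 1.17 and 0.59. Of the 228 numbered Zfp genes, which are mostly of low level (median 0.99), 16 were gained (7.02%) and 1 lost (0.439%), with medians of 0.28 and 0.30. Among all genes 13% were gained, but 1.37% of those at a mean log2(TPM + 1) of 0 to 1 and 11.9% of those at 1 to 2. The share of the Zfp genes thus lay between those of genes of like level. Zfp207, a spindle-associated member, was gained by 1.00 and 2.69. Of the 1413 gained genes 64 belonged to the cycle lists and 1257 to none of the lists.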
